A study of Mus musculus with 2 samples.

Results

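The 10 genes Rbm20, Rbm24, Rbfox1, Rbfox2, Mbnl1, Mbnl2, Celf1, Celf2, Ptbp1 and Qki encode RNA-binding proteins that choose exons in muscle. They were taken by name from the 55536 genes of the tables, of which 10766 were nuclear protein-coding genes detected at 1 TPM or more in both libraries. TPM is a relative transcript abundance with length taken into account, given here over endogenous genes. Of the 10 names, 9 matched a gene symbol in the tables, and Qki, which the tables call Qk, was matched through its synonym in RefSeq. The libraries were made from total RNA of whole heart, 300 ng each, with ERCC spike-ins. The source was adult, female, of strain 5xFAD/CAST and aged 8 to 10 months. The 5xFAD transgenes, mutant human genes of Alzheimer's disease, are under the neuronal Thy1 promoter, so heart muscle is not their main site, and CAST mice descend from wild-caught animals. There were 2 biological replicates in 1 group and no control group. No comparison between conditions exists, and no test of a difference was possible. The labels gave both replicates the same donor identifier, so an SD is the spread between these libraries and may be technical.

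Replicate 1 held 45599940.1 and replicate 2 held 40801299 expected counts, and the members took between 850 and 22909 counts each. Each library was quantified in alignment-based tables and again in tables derived directly from the reads, called direct tables below. All 6 cardiomyocyte markers were detected, at 366 to 7725 TPM, and 0 of 4 neuronal markers reached 1 TPM in both libraries. The 4 smooth muscle markers summed to 38.6 TPM in replicate 1 and 72.5 in replicate 2, and their part in differences between the libraries was not tested. Of 5 skeletal muscle markers 4 were detected, at 3.69 TPM or less. Whole tissue was sequenced, so fewer cells of a type and less RNA per cell cannot be told apart.

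Splicing factors of this kind bind short elements in or near an alternative exon and raise or lower its inclusion, often according to whether they bind upstream or downstream of it. RBM20 keeps exons of titin out of the heart transcript, and RBM24 favours muscle exons. RBFOX proteins bind UGCAUG, MBNL proteins bind YGCY elements and promote adult exon choices, and CELF proteins bind GU-rich RNA and act against MBNL on many exons. PTBP1 binds pyrimidine tracts and mostly represses exons, and QKI, a STAR family protein, binds ACUAA elements. Many of these genes carry alternative exons of their own that change where the protein resides or whether it binds RNA.

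All members were well expressed. Their median was 49.4 TPM, beside 7.79 over the 10766 detected protein-coding genes, and 10 of 10 stood at 10 TPM or more in both libraries, as did 39.9% of those genes. The 2 RBM factors of striated muscle were among the higher members. Rbm20 (chr19:53677306-53867080, plus strand, mm10) had 82.8 TPM in replicate 1 and 89.8 TPM in replicate 2 (86.3 ± 4.92, SD, n = 2). Rbm24 (chr13:46418434-46431095, plus strand) stood at 64.4 and 65.0 TPM (64.7 ± 0.442). Their libraries did not overlap, with Rbm20 above Rbm24 by a ratio of 1.29 in replicate 1 and 1.38 in replicate 2.

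The RBFOX genes were at middle levels. Rbfox2 (chr15:77078990-77307004, minus strand), the more widely expressed member, had 33.8 and 34.5 TPM (34.2 ± 0.505). Rbfox1 (chr16:5885355-7411526, plus strand), the form of neurons and muscle, had 23.0 and 21.6 TPM (22.3 ± 1.01). Rbfox2 exceeded Rbfox1 by a ratio of 1.47 and 1.60 in the alignment-based tables and by 1.15 and 1.21 in the direct tables.

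The muscleblind genes were about equal in the alignment-based tables. Mbnl1 (chr3:60472830-60629750, plus strand) stood at 72.9 and 79.2 TPM (76.0 ± 4.51) and Mbnl2 (chr14:120275669-120431697, plus strand) at 76.3 and 76.4 (76.4 ± 0.0819). Both Mbnl2 libraries thus lay between those of Mbnl1. The direct tables set Mbnl1 at 78.6 and 85.7 TPM and Mbnl2 at 52.4 and 58.5, so that Mbnl2 was at 0.667 and 0.682 of Mbnl1. Whether the pair is equal therefore depended on the quantification.

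Celf1 (chr2:90940382-91019497, plus strand), the widely expressed CELF gene, had the widest gap between libraries as a ratio of TPM. The first replicate had 22.2 TPM and the second 28.8 (25.5 ± 4.65), a ratio of 1.30. Celf2 (chr2:6539694-7509563, minus strand) stood at 19.4 and 20.6 TPM (19.99 ± 0.881), below both Celf1 libraries. Ptbp1 (chr10:79854427-79864771, plus strand), best known from cells other than muscle and neurons, was the lowest member at 14.7 and 16.1 TPM (15.4 ± 1.02), above 70.5% of detected protein-coding genes. Qki (chr17:10202601-10319854, minus strand) was the highest at 146 and 162 TPM (154 ± 11.3), above 97.0% of them.

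**Figure D1:**
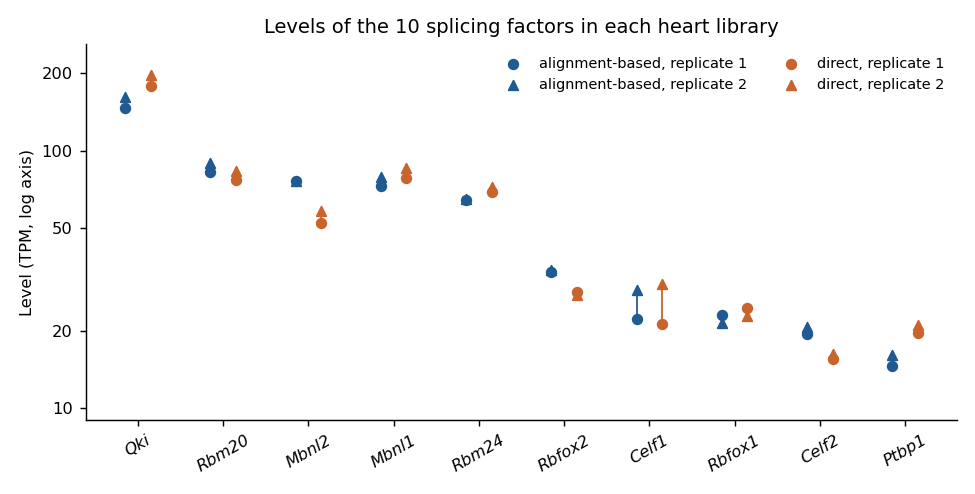
Level in TPM on a log axis (vertical) of each of the 10 genes (horizontal), with a circle for replicate 1 and a triangle for replicate 2, in blue for alignment-based and orange for direct tables. Qki stands highest at 146 and 162 TPM and Ptbp1 lowest at 14.7 and 16.1, and the tables part most at Mbnl2 (76.3 and 76.4 against 52.4 and 58.5).

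From the top, the order by alignment-based TPM was Qki, Rbm20, Mbnl2, Mbnl1, Rbm24, Rbfox2, Celf1, Rbfox1, Celf2 and Ptbp1. Among neighbours in that order, the libraries of Mbnl2 and Mbnl1 overlapped, as did those of Celf1 and Rbfox1, and the other 7 neighbouring pairs did not. In the direct tables Mbnl1 ranked 2, Rbm20 3, Rbm24 4 and Mbnl2 5, and Ptbp1 (19.6 and 21.1 TPM) passed Celf2 (15.5 and 16.2). Direct values ranged from 0.726 of the alignment-based mean for Mbnl2 to 1.32 times it for Ptbp1. Sequence shared exactly with annotated transcripts of other genes was small for 9 members, at 0.421% or less of their 31-base words. Similar sequence with mismatches was not counted. Ptbp1 shared 11.5%, mostly with the gene Gm4900, which was listed at 0 TPM in both libraries. Some exons of Ptbp1 overlap genes on the opposite strand, of which E130317F20Rik had 0.423 and 0.402 TPM and Plppr3 0.0604 and 0.0402. Whether counting used the strand is not given in the sources used here, so reads of such pairs may not be told apart.

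Relatives of the members were taken from a list of 12 genes of the same families, of which 5 were detected in both libraries. Rbm38, the relative of Rbm24, stood at 63.6 and 60.9 TPM, just below Rbm24 in each library. Of the STAR family, Khdrbs3 had 26.99 and 30.1 TPM, Khdrbs1, also known as Sam68, 12.3 and 14.9, and Khdrbs2 was listed at 0 in both. Ptbp2, the neuronal relative of Ptbp1, had 6.01 and 6.97 TPM, and Ptbp3 5.90 and 6.49. Both lay below Ptbp1 in each library.

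The neuronal and embryonic relatives of the RBFOX, MBNL and CELF genes were close to absent. Rbfox3, known as the neuronal nuclear antigen NeuN, had 0.0503 and 0.0805 TPM, from 5 and 7 counts. Mbnl3 had 0.0805 and 0.282 TPM. Celf3, Celf4, Celf5 and Celf6 lay between 0 and 0.111 TPM, from 11 counts or fewer in each library. Each of these 3 families was thus represented in these libraries almost wholly by its 2 listed members.

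Other splicing regulators gave a scale for these levels. All 12 SR proteins, which mostly promote exon inclusion, were detected at 4.70 to 63.6 TPM with a median of 14.04. All 12 hnRNP proteins, many of which repress exons, were detected at 7.34 to 146 TPM with a median of 48.6, close to the 49.4 of the members. Of 8 factors of neurons and epithelia, 3 were detected and the highest, Srrm4, had 3.28 and 3.35 TPM. Srrm4 is named because its level was seen.

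Between the libraries the members moved little. Folds were taken from expected counts after TMM scaling, replicate 2 over replicate 1, with intervals for counting error only. Celf1 had 3647 and 3753 counts, a scaled fold of 1.14 (95% interval 1.09 to 1.19). Rbfox1 had 1883 and 1512 counts, a fold of 0.891 (0.832 to 0.953). These were the widest folds in either direction, and the direct tables gave 1.15 and 0.898.

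The other 8 members had folds between 0.946 for Rbm24 and 1.06 for Mbnl1. Of 10 members, 0 lay at least 2-fold apart, as did 0.584% of the 12492 genes with a mean count of 50 or more. The median absolute log2 ratio was 0.06 over members and 0.10 over 11629 protein-coding genes of that count. The counting interval left out a fold of 1 for 6 members (Rbm24, Rbfox1, Mbnl1, Mbnl2, Celf1 and Qki) and included it for Rbm20, Rbfox2, Celf2 and Ptbp1. Such intervals narrow as counts rise, so that of Qki left out 1 at a fold of 1.03. The share of all genes whose interval leaves out 1 was not computed, so these 6 are not read as changes particular to the members. In the direct tables the interval of Mbnl2 included 1 (0.945 to 1.007) and that of Celf2 left it out (1.0006 to 1.12), with the other 8 members on the same side. Scaling to spike-in totals raised the log2 ratio of all genes by a median of 0.22. On that scale all 10 members were higher in replicate 2, by log2 ratios of 0.05 to 0.41, so that Rbm24, Rbfox1 and Mbnl2 turned direction, and relative to the shift they stood at -0.08, -0.17 and -0.06.

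**Figure D2:**
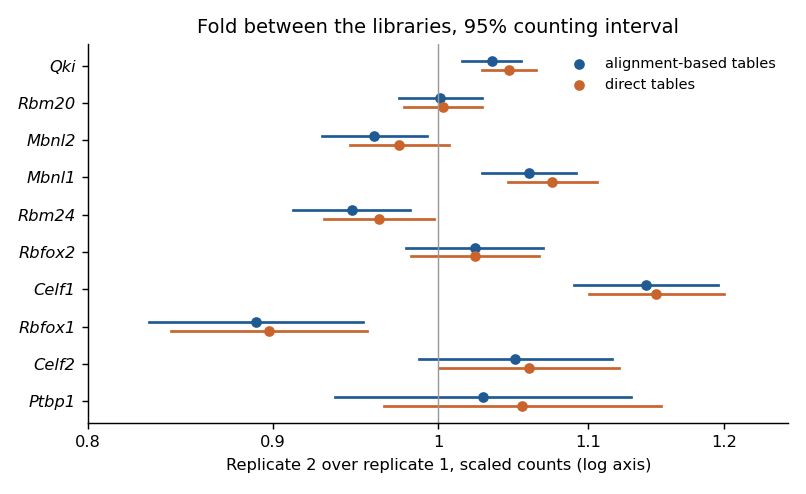
Fold of scaled counts, replicate 2 over replicate 1, on a log axis (horizontal) for each gene (vertical), with points for the fold and lines for the 95% counting interval, in blue for alignment-based and orange for direct tables. The points lie between 0.891 for Rbfox1 and 1.15 for Celf1, and both kinds of table place each gene on the same side of 1.

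For Celf1, a ratio of 1.30 in TPM stood beside 1.14 in counts, and the shares of its transcripts differed between the libraries as well. Celf1-213, a non-coding transcript of 478 bases, held 9.33% of the Celf1 TPM in replicate 1 and 17.6% in replicate 2, while it took 1.27% of the counts on average. The mean transcript length given for Celf1 was 4330 bases in replicate 1 and 4005 in replicate 2. Over transcripts of 1000 bases or more, Celf1 stood at 19.5 and 23.1 TPM.

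Short annotated transcripts weighed on TPM in most members. Transcripts under 1000 bases held 45.2% of the TPM of Qki but 6.57% of its counts. They held 44.2% of the TPM of Ptbp1 (10.9% of counts), 33.1% of Celf2 (5.26%), 30.5% of Rbfox2 (4.26%) and 25.2% of Rbm20 (2.57%). In Mbnl2 and Rbfox1 they held 0.994% and 0.109% of TPM. Without them Qki stood at 84.5 ± 5.29 TPM (n = 2) and remained the highest member, followed by Mbnl2 (75.6 ± 0.217) and Rbm20 (64.5 ± 2.02). Ptbp1 then stood at 8.58 ± 0.850, the only member under 10 TPM.

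**Figure D3:**
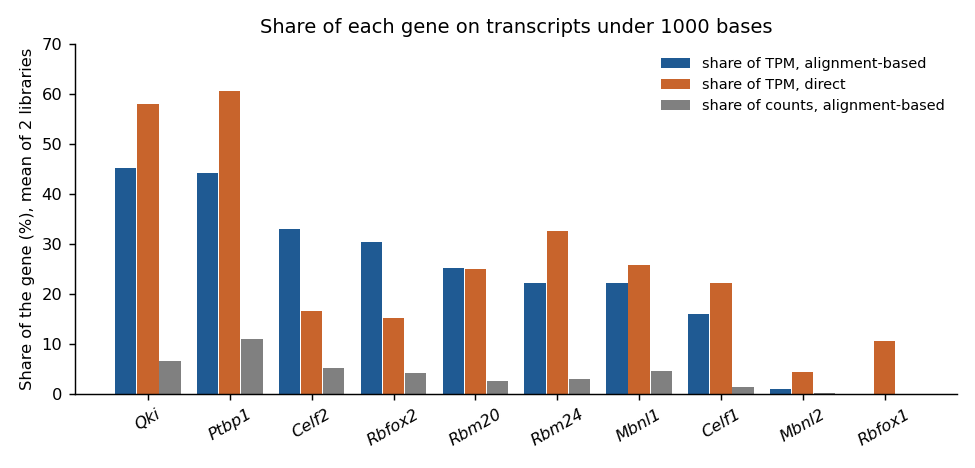
Share of each gene in percent, mean of 2 libraries (vertical, from 0), that lies on annotated transcripts under 1000 bases, for the 10 genes (horizontal), as share of TPM in alignment-based tables (blue) and direct tables (orange) and as share of counts (grey). In Qki the short transcripts take 45.2% and 58.1% of TPM but 6.57% of counts.

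The most abundant transcript by TPM was the same in both libraries and both kinds of table for 4 members, Rbm20, Rbm24, Rbfox2 and Qki, as it was for 75.9% of 6167 genes with at least 5 TPM and more than 1 transcript. By estimated counts it was the same for 8 members, all but Mbnl2 and Celf1. The share over all genes was computed by TPM only, so these 8 have no background beside them. Transcripts are named when they held 10% or more of a gene's TPM in either kind of table.

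Rbm20 was divided between transcripts of nearly equal level. Rbm20-203, which encodes the full protein of 1199 codons, held 40.1% and 38.4% of the gene's TPM. Rbm20-201, annotated as a target of nonsense-mediated decay, the pathway that destroys RNAs with an early stop codon, held 35.5% ± 0.707 (n = 2). The fragment Rbm20-202 of 465 bases held 23.9% and 26.6%. Direct tables gave 40.8% and 39.7%, 35.1% and 34.3%, and 24.1% and 25.96%, so the division did not rest on the kind of table. By counts the full-length form took 52.4% and the decay form 45.1%.

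Rbm24 rested on a single coding transcript. Rbm24-201, of 236 codons, held 78.7% and 76.9% of TPM and 97.0% of counts. The retained-intron transcripts Rbm24-205 and Rbm24-203 held 14.6% ± 0.510 and 4.79% ± 0.0312. In the direct tables Rbm24-201 held 68.5% and 66.2%.

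Qki was spread over its known protein forms, which share the RNA-binding part and differ in their last residues. QKI-5 is nuclear, while QKI-6 and QKI-7 are found mostly in the cytoplasm. Among complete coding transcripts, the form of 341 codons, the length of QKI-5, held 52.0% and 48.9% of TPM. The form of 319 codons, the length of QKI-6, held 37.9% and 40.4%, and the form of 325 codons, that of QKI-7, 10.1% and 10.8%. Direct tables gave 49.6% and 46.5%, 34.4% and 36.9%, and 16.0% and 16.6%. The order of the forms was therefore the same in all 4 tables. The leading Qki transcript by TPM, at 45.8 and 52.2 TPM, was Qki-205, an incomplete coding fragment of 650 bases that took 4.37% of counts, and by counts it was Qki-204 of 341 codons with 48.1%. Qki-206 (25.1 and 29.4 TPM) and the retained-intron transcript Qki-203 (19.6 and 21.8) were the other transcripts above 10%.

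Mbnl2 showed the largest conflict between the tables. Alignment-based tables gave Mbnl2-204, of 355 codons, 45.8 and 43.2 TPM and Mbnl2-201, of 373 codons, 0.433 and 0.845. Direct tables gave Mbnl2-204 22.2 and 23.7 TPM and Mbnl2-201 26.02 and 22.1. The deposited credibility bounds for Mbnl2-201 ended at 1.09 TPM in replicate 1 and 1.51 in replicate 2, far below both direct values. Mbnl2-205, a non-coding transcript of 2881 bases, stood at 26.5 and 29.1 TPM against 0.398 and 7.24 in the direct tables. For Mbnl2-204 and Mbnl2-201 the tables lay wider apart than the libraries did within either kind.

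Mbnl1 was divided among many forms, the highest at 23.0% of TPM in the alignment-based tables. Mbnl1-201 (381 codons) held 17.5% and 23.0%, the fragment Mbnl1-221 20.5% and 19.1%, Mbnl1-214 (387 codons) 12.4% ± 0.524 and Mbnl1-218 (347 codons) 12.2% and 9.32%. The non-coding Mbnl1-208 held 10.8% and 14.1%. In the direct tables the fragment Mbnl1-221 led in both libraries, with 24.04% and 22.97%, and Mbnl1-201 held 10.9% and 15.3%. By counts Mbnl1-201 led in all 4 tables, with 36.03% on average in the alignment-based pair.

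Rbfox1 was carried by a pair of coding transcripts. Rbfox1-203 (417 codons) held 50.4% and 51.0% of TPM and Rbfox1-201 (396 codons) 48.9% and 48.1%. Direct tables placed Rbfox1-201 first (48.5% and 49.1%), Rbfox1-203 next (37.99% and 40.9%) and the fragment Rbfox1-206 at 12.4% and 8.87%, which the alignment-based tables listed at 0. In Rbfox2 the leading transcript was Rbfox2-203 (381 codons) with 28.1% and 30.02%, and 36.6% and 43.3% in the direct tables. Rbfox2-207 (346 codons) held 19.9% and 13.9% and Rbfox2-204 (449 codons) 14.3% and 14.7%. Rbfox2-205, a non-coding transcript of 417 bases, held 21.6% and 19.8% but 0.866% and 0 in the direct tables, which gave 16.1% and 11.9% to the fragment Rbfox2-213.

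By TPM the CELF genes and Ptbp1 had no dominant form. Celf1-206 (486 codons) held 32.7% and 23.6% of TPM, Celf1-201 (513 codons) 27.7% in both libraries and Celf1-204 (483 codons) 20.6% and 16.4%. Celf1-205, also of 486 codons, held 0.770% and 6.88% but 13.1% and 18.8% in the direct tables. In Celf2 the leader was Celf2-203, a transcript of 529 bases and 159 codons, with 31.1% and 31.2%, where direct tables gave 4.90% and 0. Of the alignment-based counts Celf2-203 took 4.69%. Direct tables put Celf2-206 (526 codons) first, with 26.3% and 23.9% against 15.6% and 13.0%, and Celf2-226 (472 codons) at 17.1% and 17.8% against 5.45% and 1.66%. Celf2-205 (488 codons) held 6.70% and 11.0%, and 7.71% and 13.0% in the direct tables. In Ptbp1, Ptbp1-216 (555 codons) held 20.1% and 20.9%, Ptbp1-202 (489 codons) 19.7% and 20.1%, the fragment Ptbp1-209 19.7% and 18.6% and the non-coding Ptbp1-203 18.7% and 13.4%. Direct tables gave Ptbp1-209 32.5% and 34.9%, Ptbp1-203 2.82% and 0 and the fragment Ptbp1-211 15.8% and 9.29%. By counts Celf2-206 and Ptbp1-216 led their genes in every library and kind of table. Ptbp1-216 took 38.6% of counts on average in the alignment-based tables and 59.3% in the direct tables.

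The alternative exons of the members were then followed one by one. Inclusion was the TPM of transcripts that hold a coding cassette exon as a share of these and the transcripts that skip it, so it is an estimate over annotated transcripts and not a count of junction reads. The members held 33 such exons, 29 of them with 5 TPM or more in each table, in 8 of 10 members. Inclusion lay between 10% and 90% in every library and kind of table for 11 of the 29 (37.9%), beside 26.5% of 7381 exons over all genes. These exons are not all separate, as some rest on the same transcripts. By counts some fell outside that range, among them the Rbfox2 exons of 43 and 93 bases and a 117-base exon of Qki. The share over all genes was not taken by counts. The kinds of table lay 25 points or more apart for 2 of 29 (6.90%), both in Mbnl2, beside 3.27% over all genes.

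Rbfox1 and Rbfox2 each carry a 40-base exon known from brain and a 43-base exon known from muscle, which set the C-terminal part of the protein. The exons of the 2 genes are shown together because their use was measured in both. Capitals mark bases that differ between the genes, at 6 of 40 and 16 of 43 positions.
Rbfox1, 40 bases, chr16:7363865-7363904, plus strand: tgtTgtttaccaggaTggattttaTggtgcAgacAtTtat
Rbfox2, 40 bases, chr15:77094451-77094490, minus strand: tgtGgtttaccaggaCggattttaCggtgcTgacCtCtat
Rbfox1, 43 bases, chr16:7369801-7369843, plus strand: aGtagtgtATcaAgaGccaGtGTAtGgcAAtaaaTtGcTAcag
Rbfox2, 43 bases, chr15:77091812-77091854, minus strand: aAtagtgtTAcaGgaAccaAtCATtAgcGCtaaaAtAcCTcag
The 40-base exon is thus the more alike of the pair, with 34 of 40 bases shared against 27 of 43.

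In Rbfox1 the 40-base exon was included at 49.5% and 48.8% and the 43-base exon at 50.5% and 51.2%, and direct tables gave 49.4% and 49.9%, and 50.6% and 50.1%. Each Rbfox1 transcript in this measure holds one of the pair and none holds both. In Rbfox2 the 40-base exon stood at 61.8% and 66.5% and the 43-base exon at 35.6% and 29.9%, with 62.4% and 65.7%, and 34.9% and 31.1%, in the direct tables. The brain and muscle exons were therefore about level in Rbfox1, while Rbfox2 favoured the 40-base exon in all 4 tables. These shares depend on transcript length: by counts the 43-base exon took 31.5% in Rbfox1 and 7.91% in Rbfox2, where its transcripts are annotated as 1041 and 1810 bases long.

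Rbfox2 also skips a 93-base exon of its RNA recognition motif, and the form without it is known to bind RNA poorly and to act against the full protein. It is set beside the exon of Rbfox1 in the same place, which no annotated coding alternative skips.
Rbfox2, 93 bases, chr15:77105577-77105669, minus strand: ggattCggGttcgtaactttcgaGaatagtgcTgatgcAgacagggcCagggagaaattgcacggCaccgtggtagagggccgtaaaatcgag
Rbfox1, 93 bases, chr16:7292185-7292277, plus strand: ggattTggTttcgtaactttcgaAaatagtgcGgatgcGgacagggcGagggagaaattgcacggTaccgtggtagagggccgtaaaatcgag
The exons share 86 of 93 bases. Inclusion of the Rbfox2 exon was 73.8% in replicate 1 and 82.1% in replicate 2, and 71.7% and 80.4% in the direct tables. Replicate 2 was the higher in both kinds of table, and by counts inclusion was 95.1%. Skipping rested almost wholly on Rbfox2-207 (6.71 and 4.79 TPM), annotated at 1041 bases, which also holds the 43-base exon. The values of both exons, and their shifts between the libraries, are therefore not independent of each other.

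Mbnl1 and Mbnl2 share 3 cassette exons of equal length. The 54-base exon helps hold the protein in the nucleus, the 36-base exon takes part in self-association, and the 95-base exon changes the reading frame of the C-terminal end. They are shown because both genes carry all of them, with capitals at bases that differ between the genes.
Mbnl1, 54 bases, chr3:60614683-60614736, plus strand: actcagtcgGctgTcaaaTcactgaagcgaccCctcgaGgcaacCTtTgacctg
Mbnl2, 54 bases, chr14:120395712-120395765, plus strand: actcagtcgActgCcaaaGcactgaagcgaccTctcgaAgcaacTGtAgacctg
Mbnl1, 36 bases, chr3:60621423-60621458, plus strand: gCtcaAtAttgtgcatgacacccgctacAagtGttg
Mbnl2, 36 bases, chr14:120403336-120403371, plus strand: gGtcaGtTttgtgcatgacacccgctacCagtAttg
Mbnl1, 95 bases, chr3:60622146-60622240, plus strand: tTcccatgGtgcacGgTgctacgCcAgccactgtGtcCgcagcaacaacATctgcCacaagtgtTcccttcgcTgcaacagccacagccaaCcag
Mbnl2, 95 bases, chr14:120404638-120404732, plus strand: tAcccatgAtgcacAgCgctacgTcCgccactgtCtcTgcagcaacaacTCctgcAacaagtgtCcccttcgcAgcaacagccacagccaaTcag
The genes share 46 of 54, 31 of 36 and 81 of 95 bases.

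For the 36-base exon, Mbnl1 stood above Mbnl2 in all 4 tables. Mbnl1 included it at 44.2% and 54.9%, and at 54.3% and 58.2% in the direct tables. Mbnl2 included it at 0.423% and 0.777%, and at 2.96% and 4.91% in the direct tables. The libraries and tables of the 2 genes did not overlap.

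The 54-base exon of Mbnl1, the nuclear one, was included at 43.9% and 51.2%, and at 50.1% and 48.3% in the direct tables. For Mbnl2 it stood at 2.24% and 1.89% in the alignment-based and 52.4% and 45.5% in the direct tables, which follows the shift between Mbnl2-204 without it and Mbnl2-201 with it. Its use in Mbnl2 could not be set from these tables. The 95-base exon was included at 76.2% and 76.6% in Mbnl1 (69.1% and 72.7% direct) and at 63.9% and 60.2% in Mbnl2 (99.2% and 86.4% direct), where the transcript that skips it is the non-coding Mbnl2-205. The genes did not overlap in its use in either kind of table, but which of them was higher turned between the kinds. Only 1 annotated Mbnl1 transcript, the incomplete Mbnl1-215, holds the 54-base and 36-base exons together, and it was listed at 0 in all 4 tables. Transcripts that do not cover the whole region were left out, so whether these exons exclude each other was not tested. Mbnl1 transcripts with 36 and 95 held 42.1% and 50.3% of the Mbnl1 TPM over the region. Those with 54 alone held 21.6% and 18.9%, and those with 54 and 95 21.3% and 25.8%.

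The RBFOX element TGCATG, the DNA spelling of UGCAUG, was searched in the members' 33 cassette exons on both strands. It occurred on the transcript strand in 3, the 36-base exons of Mbnl1 and Mbnl2, in both from base 12, and a 258-base exon of Mbnl1. The other strand held it in 2 exons that overlap each other. Of 54 coding cassette exons of 36 bases over all genes that passed the 5 TPM minimum, 2 (3.70%) held it, the same on either strand, and these 2 were the Mbnl exons. Of 5 such exons of 258 bases, 1 held it, which was the Mbnl1 exon. The element was shared although 5 of the 36 bases differ between Mbnl1 and Mbnl2. A match is a description of sequence and says nothing of binding.

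**Figure D4:**
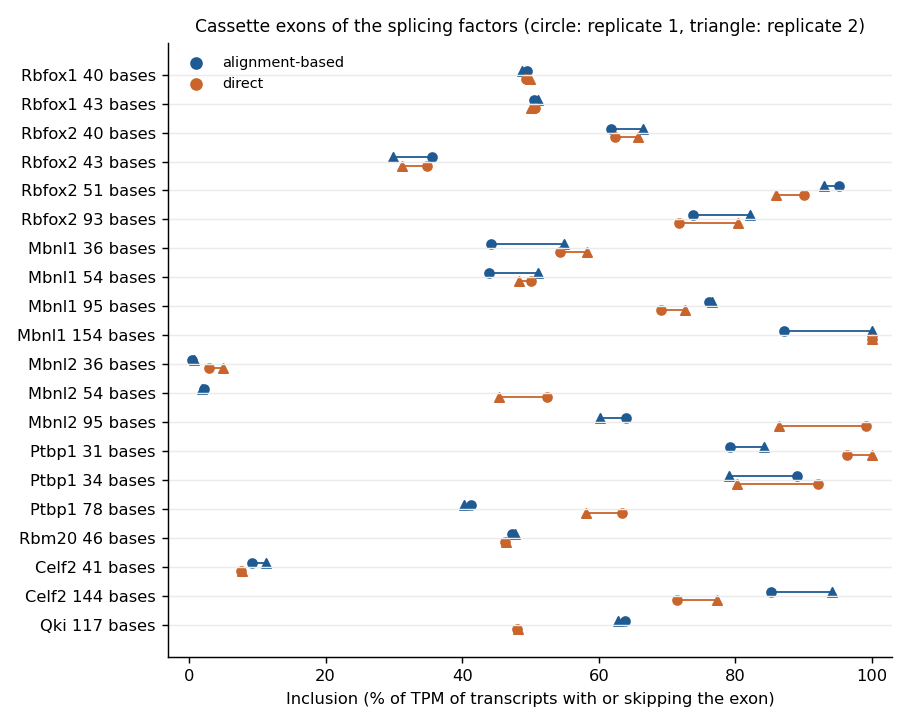
Inclusion in percent of TPM (horizontal) of 20 cassette exons, named by gene and length in bases (vertical), with a circle for replicate 1 and a triangle for replicate 2, in blue for alignment-based and orange for direct tables. The 36-base exon lies at 44.2% to 58.2% in Mbnl1 and under 5% in Mbnl2, while the 54-base exon of Mbnl2 lies at about 2% in blue and 45.5% to 52.4% in orange.

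Ptbp1 holds a 78-base exon that lengthens the linker between its RNA-binding domains and a 34-base exon whose skipping shifts the frame, a known route by which the protein limits its own level. They are shown in lower case throughout because no part is singled out.
Ptbp1, 78 bases, chr10:79860117-79860194, plus strand: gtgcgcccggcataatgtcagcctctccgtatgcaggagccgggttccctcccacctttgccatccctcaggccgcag
Ptbp1, 34 bases, chr10:79862014-79862047, plus strand: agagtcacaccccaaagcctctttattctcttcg
Inclusion of the 78-base exon was 41.4% and 40.3%, and 63.5% and 58.2% in the direct tables, so the tables fell on different sides of 50%. The 34-base exon was included at 89.0% in replicate 1 and 79.1% in replicate 2, and at 92.1% and 80.2% in the direct tables. Ptbp1-spanning transcripts together held 7.57 and 8.36 TPM here, the thinnest base among these exons.

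Rbm20 had a single annotated coding cassette exon, of 46 bases, which shifts the frame and is held by the decay transcript Rbm20-201.
Rbm20, 46 bases, chr19:53852354-53852399, plus strand: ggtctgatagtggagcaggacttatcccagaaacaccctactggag
It was included at 47.3% and 47.7%, and at 46.2% and 46.4% in the direct tables, over 58.5 to 65.9 TPM. All 4 values thus lay between 46.2% and 47.7%, and by counts inclusion was 46.3%. The start of Rbm20-201 is incomplete in the annotation, which gives it 7 exons. Rbm20-203, the 1 transcript that skips the exon, has 14. The inclusion printed is the level of Rbm20-201 as a share of this pair, so reads outside the exon weigh on it too. Use of the exon itself was not measured.

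The remaining exons leaned to one side or differed between tables. A 144-base exon of Celf2 was included at 85.2% and 94.1%, and at 71.5% and 77.4% in the direct tables. A 41-base exon of Celf2, held by a transcript annotated for decay, stood at 9.23% and 11.3%, and at 7.68% and 7.80%. A 117-base exon of Qki stood at 63.8% and 62.9%, and at 48.1% and 48.2% in the direct tables. Qki-205, the fragment of 650 bases, was the one transcript that skips that exon, and by counts inclusion was 95.5%. A 51-base exon of Rbfox2 stood at 95.1% and 93.04%, and at 90.03% and 86.01% in the direct tables. A 31-base exon of Ptbp1 stood at 79.2% and 84.2%, and at 96.3% and 100% in the direct tables. A 154-base exon of Mbnl1 was at 87.1% in the alignment-based table of replicate 1 and at 100% in the other 3 tables. The usable exons not named lay above 90% or below 10% in every library and table.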

How the data were processed

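The authors gave an expected or estimated count for each gene and transcript, with no normalization. The authors' TPM covered every entry of a table, spike-ins included, and was rescaled here to endogenous genes. A percent of TPM for each transcript was deposited too, and the shares printed were recomputed from TPM. Tables are on mm10 with GENCODE M21. Not given in the sources used here are the aligner, the quantifiers and the use of strand.

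Counts were scaled with TMM in edgeR 4.0.16 (R 4.3.3), with a prior count of 2 in log2 ratios, and calls needed a mean count of 50 and a 2-fold difference. Fold intervals are exact 95% binomial (Clopper-Pearson) intervals from Python 3.11.15 with scipy 1.17.1. Exons and sequences came from the annotation's transcripts. Shared sequence was counted in 31-base words. All 10 members are named, and transcripts at 10% or more of a gene's TPM. Members and lists were chosen with earlier results of these data known. Size factors of DESeq2 1.42.0 and other settings were alternatives. The fold step was tested on simulated data. The inclusion step was checked only on a small made-up gene with set transcript levels, which does not test the levels it rests on. Protein sequences, transgene transcripts and CAST alleles were not analysed here.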

Additional observations from a re-analysis of the deposited data

How the results depend on the processing

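The median of 49.4 TPM was 41.7 in the direct tables, 146 when TPM was rescaled over nuclear protein-coding genes (which raises every gene alike) and 37.0 over transcripts of 1000 bases or more, the last an alternative chosen after seeing the data. It lay between 49.1 and 49.8 in single libraries. The count of members with 1 main transcript in all tables was 4, 8 by estimated counts and 5 or 6 in single libraries. The members at 10 TPM or more were 8 at a threshold of 20 TPM and 9 without short transcripts. None lay 2-fold apart under any of the 7 alternatives tried, a 1.5-fold threshold included. All 10 log2 ratios stayed within their counting interval except under spike-in scaling, which moved all 10. All exon inclusion results, in the alignment-based tables, the direct tables and by counts, were added after seeing the data. No paired analysis was possible because the series holds 1 group. With 2 libraries and no junction counts, use of all these exons is limited by how the quantification assigned reads. Of the 20 cassette exons plotted by inclusion, 11 moved by more than the SD between libraries in the direct tables and 15 by counts. Those moved in the direct tables lay in Rbm20, Rbfox2, Mbnl1, Mbnl2, Celf2, Ptbp1 and Qki. By counts, exons of all these genes and of Rbfox1 moved. The moves differed in size. In the direct tables the 46-base exon of Rbm20 went from 47.5% to 46.3% and the 54-base exon of Mbnl2 from 2.06% to 48.9%.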

Other observations

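Among 19 genes known as targets of these factors, all were detected, and 16 had coding cassette exons with 5 TPM or more, 221 in all. Of these exons, 72 (32.6%) lay between 10% and 90% inclusion in every library and table, beside 26.5% over all genes, and many belong to titin. The tables lay 25 points or more apart for 2 of them, both in the troponin T gene Tnnt2. The examples that follow were chosen after their values were seen.

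The 36-base exon of the insulin receptor gene Insr, an exon that CELF1 and MBNL1 act on in opposite directions, was included at 14.04% and 18.4%, and at 16.9% and 19.4% in the direct tables. The 81-base exon of Fxr1, a muscle exon, stood at 67.8% and 65.8%, and at 75.4% and 73.0% in the direct tables. In the pyruvate kinase gene Pkm, where PTBP1 represses the first of a pair of 167-base exons, that first exon (chr9:59675029-59675195) stood at 52.9% and 54.03%, and at 52.5% and 53.6% in the direct tables. In the calcium channel gene Cacna1c, a pair of 84-base exons was near balance, at 55.2% and 50.7% for one and 45.8% and 49.9% for the other, with 58.1% and 52.9%, and 43.5% and 47.8%, in the direct tables. In the actinin gene Actn1, a 66-base exon stood at 43.8% and an 81-base exon at 56.2% as means of the alignment-based tables, with 45.6% and 54.4% in the direct tables. The 24-base exon of Ryr2 stood at 0.525% and 0.289%, and at 1.43% and 1.47% in the direct tables.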
